A study of Mus musculus with 6 samples.

Results

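The genes described here serve the endoplasmic reticulum (ER), the compartment in which a cell folds and exports proteins. They are 40 named genes in 9 roles: chaperones with their co-chaperones, disulfide isomerases, sensors of unfolded protein, the transcription factors of those sensors, late stress targets, ER-associated degradation, and the SEC61, TRAP and signal peptidase complexes. They were picked by symbol and function from the 49585 genes of the count tables. A total of 39 of the 40 passed the expression filter and were tested. Chac1, which encodes a glutathione-degrading enzyme, did not, with 0, 2 and 5 reads in WT replicates 1, 2 and 3 and 0, 0 and 14 in IRF8KO replicates 1, 2 and 3.

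The cells were microglia, the resident macrophages of the brain, from male mice 3 months old. There were 3 libraries labelled WT (wild type) and 3 labelled IRF8KO, which stands for a knockout of Irf8, the gene of a transcription factor of the myeloid lineage. No treatment was given. Microglia were isolated from brain without enzymes and sorted by flow cytometry into TRIzol, and polyadenylated RNA was amplified with the SMART-Seq v4 kit and tagged with Nextera XT. The labels name neither the knockout allele nor the strain, and they do not tie a library to a named animal, so the p-values measure the spread between these samples.

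Gene counts ranged from 3658917 in WT replicate 1 to 11098363 in IRF8KO replicate 3. Irf8 itself was at 795, 851 and 1403 counts per M (CPM; 1 M is 1e+06 counts) in WT and at 743, 649.99 and 849.6 in IRF8KO, a log2 fold change of -0.44 (SE 0.33, adjusted p = 0.368). A count over the whole gene cannot show the loss of single exons, so the genotypes are used as labelled. Apoe, which encodes a secreted lipid carrier that passes through the ER, took 0.224%, 0.154% and 0.324% of gene counts in WT and 33.7%, 25.5% and 28.02% in IRF8KO. Of 11 microglia markers, all tested, 4 were called lower and 1 higher: P2ry12, Gpr34, Cx3cr1 and Sall1 fell, the first 3 by 4.13, 3.13 and 2.16 on the log2 scale and Sall1 to 0 in every IRF8KO library, and Fcrls rose by 1.35. Their sum was between 44000 and 73230 CPM in WT and between 35780 and 50260 CPM in IRF8KO. Markers of border-associated macrophages summed to between 611.9 and 835 CPM in WT and between 3819 and 5036 CPM in IRF8KO, with 8 of 10 tested and all 8 called higher; Lyve1 was at 0 throughout. Of the markers of other brain cells, 2 of 6 for neurons were tested and both were called higher (sums of 0.566 to 8.13 CPM in WT and 18.8 to 23.1 CPM in IRF8KO), and 5 of 6 for astrocytes were tested, 3 called higher and 1 lower (174 to 213 CPM and 114 to 197 CPM). Those of oligodendrocytes, 4 of 5 tested and 1 called lower, summed to 283 to 693 CPM in WT and 470.4 to 679 CPM in IRF8KO, and those of endothelial cells, 1 of 5 tested and called lower, to 18.3 to 21.4 CPM and 2.89 to 9.87 CPM. The part of these cells in the members' values was not tested. WT replicate 3 stood apart: immediate early genes, which respond within minutes to stimulation or handling, summed to 5148, 9859 and 679 CPM in WT and to 855, 654 and 813 CPM in IRF8KO. In bulk samples of this kind, fewer cells of a type and less RNA per cell cannot be told apart.

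Proteins for secretion enter the ER through the SEC61 channel, lose their signal peptide to the signal peptidase, and are folded by chaperones such as BiP (gene Hspa5) and by the disulfide isomerases; those that fail are pulled back to the cytosol and degraded. When unfolded protein builds up, the sensors IRE1 (Ern1), PERK (Eif2ak3) and ATF6 start the unfolded-protein response: IRE1 splices Xbp1 RNA, ATF6 is cut to a free transcription factor, and PERK slows translation while favouring ATF4. XBP1 and ATF6 act through the ER stress element (ERSE) in the promoters of chaperone genes, and ATF4 and its target CHOP (Ddit3) through amino acid response elements. Counts per gene show neither the splicing of Xbp1 nor the activity of a sensor.

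The promoters show which members carry these elements, and they are given because the values of members that share an element are set side by side below. RefSeq promoters (build GRCm38.p6, 250 bases before to 50 bases after the start) matched 33 of the 40 genes. Hyou1, Manf, Atf6, Sec61a1, Ssr2, Derl1 and Spcs3 had no promoter to search, so whether they carry an element is not known here. Only exact matches were counted, and near matches were not. The classical ERSE, searched on both strands, was in 8 of them: Hspa5, Hsp90b1, Calr, Canx, Creld2, Dnajc3, Pdia6 and Syvn1. It was in 0.119% of all 32851 promoters of this length. The related ERSE-II was in the promoters of Dnajb11 and Herpud1 and in 0.0365% of all promoters. The amino acid response element in the form TGATGNAA was in those of Asns, Chac1, Herpud1 and Trib3 and in 3.97% of all promoters. No member had both ERSE forms. A match of letters is a description and not a shown binding site. The members were picked by function, chaperone genes among them, so nothing is read from their shares beside those of all promoters. Below are the promoters of the chaperone BiP, its companion GRP94 (Hsp90b1) and the lectin chaperones calnexin (Canx) and calreticulin (Calr), 5′ to 3′ on the gene's strand, with the ERSE in capitals. In Calr and in the second match of Hsp90b1 it lies on the opposite strand and is read backwards.
Hspa5 (chr2:34771840-34772139, plus strand): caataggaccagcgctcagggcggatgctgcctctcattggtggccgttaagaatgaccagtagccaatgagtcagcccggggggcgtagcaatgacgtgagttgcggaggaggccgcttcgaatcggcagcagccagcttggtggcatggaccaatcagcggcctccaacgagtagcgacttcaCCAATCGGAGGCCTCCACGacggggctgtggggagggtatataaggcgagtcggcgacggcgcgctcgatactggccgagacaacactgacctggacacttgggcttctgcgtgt
Hsp90b1 (chr10:86705395-86705694, minus strand): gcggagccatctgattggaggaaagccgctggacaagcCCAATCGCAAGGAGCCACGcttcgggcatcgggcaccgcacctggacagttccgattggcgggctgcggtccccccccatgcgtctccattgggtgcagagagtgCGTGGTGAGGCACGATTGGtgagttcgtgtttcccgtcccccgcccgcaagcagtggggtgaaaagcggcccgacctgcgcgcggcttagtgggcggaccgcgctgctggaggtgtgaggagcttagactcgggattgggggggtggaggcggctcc
Canx (chr11:50325624-50325923, minus strand): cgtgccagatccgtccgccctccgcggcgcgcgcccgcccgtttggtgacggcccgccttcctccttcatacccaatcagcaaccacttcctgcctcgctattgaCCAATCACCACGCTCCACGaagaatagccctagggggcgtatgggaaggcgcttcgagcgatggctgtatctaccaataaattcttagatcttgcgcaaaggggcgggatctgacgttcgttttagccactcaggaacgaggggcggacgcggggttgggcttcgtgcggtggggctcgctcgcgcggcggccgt
Calr (chr8:84846882-84847181, minus strand): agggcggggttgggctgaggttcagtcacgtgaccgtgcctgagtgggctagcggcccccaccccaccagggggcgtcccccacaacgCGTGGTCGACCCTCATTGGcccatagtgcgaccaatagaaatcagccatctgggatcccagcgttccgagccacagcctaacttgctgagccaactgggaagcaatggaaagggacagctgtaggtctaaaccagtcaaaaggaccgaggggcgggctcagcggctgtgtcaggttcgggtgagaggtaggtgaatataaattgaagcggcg

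The matches in the other members, each on the strand that reads CCAAT first, show how little beyond the fixed letters is shared.
Creld2: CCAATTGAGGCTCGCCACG
Dnajc3: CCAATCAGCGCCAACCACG
Pdia6: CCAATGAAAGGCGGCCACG
Syvn1: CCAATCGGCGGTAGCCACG

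With libraries scaled by TMM (trimmed mean of M-values), ER genes were called in both directions between the genotypes. The small subunits of the translocon, Sec61g and Sec61b, and the signal peptidase subunit Spcs1 were called higher in IRF8KO, while Hsp90b1, Canx, the isomerase Pdia3, the degradation factor Edem1 and the peptidase subunit Spcs3 were called lower. With edgeR's quasi-likelihood test and a Benjamini-Hochberg adjusted p under 0.05 over 11041 genes, 3 members rose and 5 fell, 8 of 39 or 20.5%. Of all tested genes 19.1% were called, 9.64% higher and 9.46% lower, so the share of called members was close to that of the whole transcriptome. These shares are also the background for the counts by role below. Each role holds few genes, so nothing is read from its count alone. With library size alone, Apoe inside the total, edgeR called 0 members higher (2 at an unadjusted p under 0.05) and 10 lower, beside 5.9% and 17.3% of all genes. Without IRF8KO replicate 3 it called 0 members (5 higher and 5 lower at an unadjusted p under 0.05), beside 7.95% of all genes. The members' median log2 fold change was 0.15, against -0.11 for all tested genes, and 56.4% of members against 45.8% of all genes lay above 0. At an unadjusted p under 0.05 there were 15 members, 7 higher and 8 lower. The share of all genes at that threshold is not given here, so nothing is read from counts at unadjusted p. The WT and IRF8KO values did not overlap in 13 members, 7 higher and 6 lower; they did not overlap in 37.9% of all tested genes, 20% higher and 17.9% lower.

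**Figure D1:**
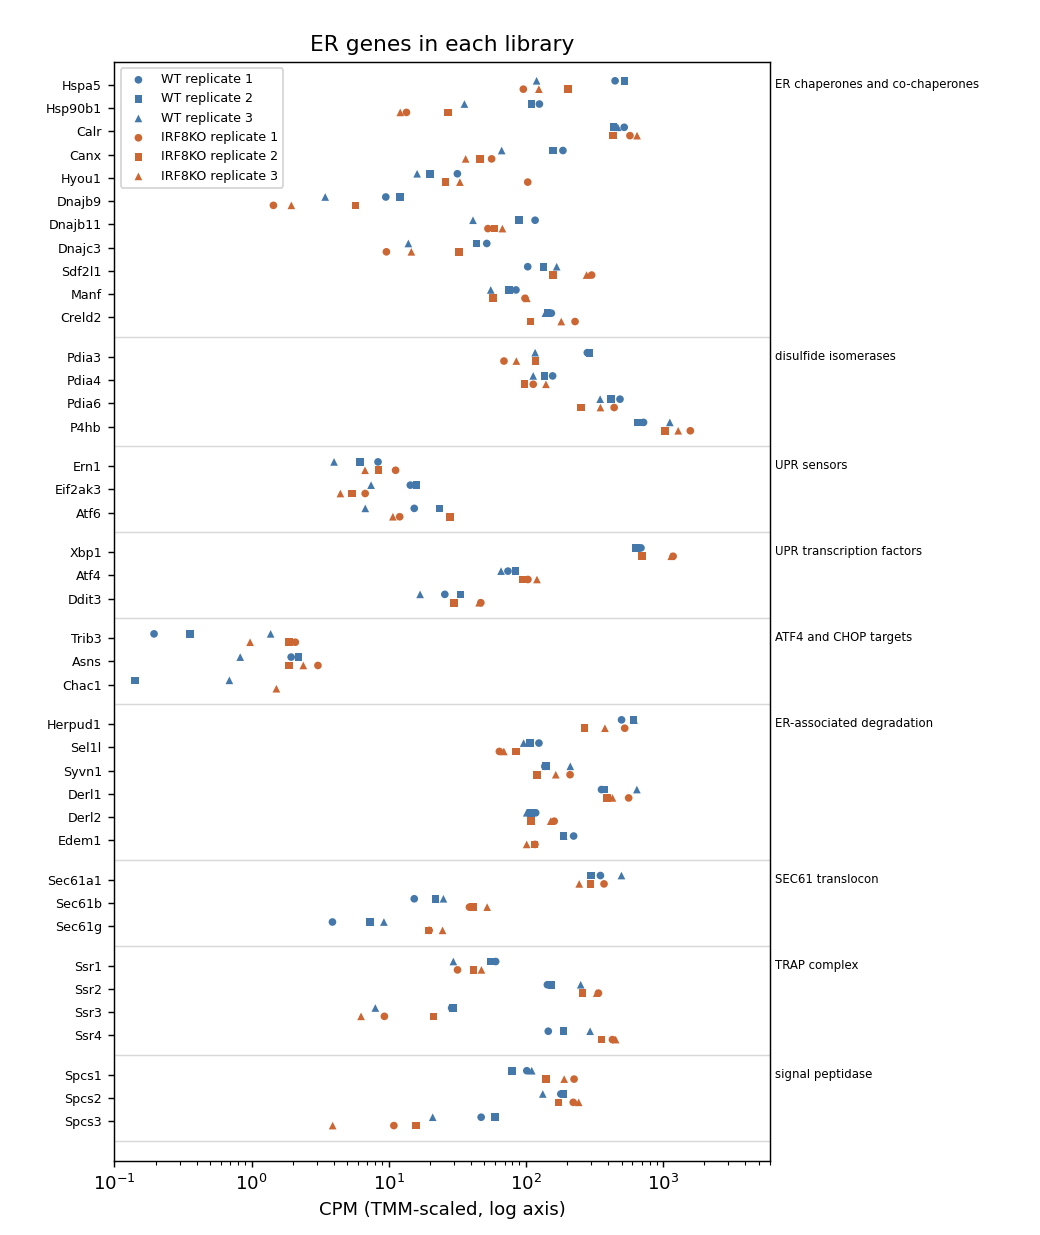
Level of each ER gene (rows, by role) in the 6 libraries, in CPM scaled by TMM on a log axis; a value of 0 cannot be drawn. Blue marks are WT and orange marks IRF8KO, with circles, squares and triangles for replicates 1, 2 and 3; WT replicate 3 lies apart from the other WT libraries in several rows, such as Hspa5 at 119.9 CPM.

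Among the 11 chaperones and co-chaperones, edgeR with TMM scaling called 2 lower and none higher; 5 had a positive and 6 a negative log2 fold change, with a median of -0.46. DESeq2 called Hyou1 (1.29, adjusted p = 0.042) and Sdf2l1 (0.884, adjusted p = 0.047) higher as well, each of which passed in 4 of the 18 alternative fits. Hspa5 encodes BiP, the main ER chaperone, which also holds the stress sensors inactive. Its CPM were 448, 526 and 119.9 in WT and 96.0, 204 and 125 in IRF8KO. WT replicates 1 and 2 were high, and WT replicate 3 fell inside the IRF8KO range, so the groups overlapped. Hspa5 had a log2 fold change of -1.36 (SE 0.48, adjusted p = 0.0685), which missed the threshold. Hspa5 was called in 5 of 18 alternative fits, 4 of them with all libraries, among them DESeq2 (adjusted p = 0.0246) and edgeR with no expression filter (adjusted p = 0.00123). Without WT replicate 3 it was -1.72 (adjusted p = 0.00278), and with WT replicate 3 as the only WT library 0.27 (adjusted p = 0.742). The immediate early genes given above were high in the same WT libraries as Hspa5; their part in the result was not tested.

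Hsp90b1 (chr10:86690209-86705509, minus strand) encodes GRP94, the ER form of HSP90, which folds Toll-like receptors and integrins. It stood at 126, 110.0 and 35.7 CPM in WT and at 13.5, 27.0 and 12.1 in IRF8KO. On this TMM scale all WT values lay above all IRF8KO values, with WT replicate 3 the lowest of its group; per M counts without Apoe, IRF8KO replicate 2 (37.1) lay above WT replicate 3 (32.8). Hsp90b1 had a log2 fold change of -2.36 (SE 0.47, adjusted p = 0.00517), and the adjusted p was 0.0537 without IRF8KO replicate 3 and at most 0.0406 without any other single library. With WT replicate 3 as the only WT library the log2 fold change was -0.99 (adjusted p = 0.256). Other gene models overlap 15.7% of its exonic length.

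Canx (chr11:50293961-50325673, minus strand) encodes calnexin, a membrane lectin that holds newly made glycoproteins. Its CPM were 187, 157 and 66.7 in WT and 56.3, 46.6 and 36.4 in IRF8KO, without overlap on the TMM scale and with WT replicate 3 the lowest WT library. Per M counts without Apoe, WT replicate 3 (61.3) lay below IRF8KO replicate 2 (63.98). The log2 fold change was -1.56 (SE 0.38, adjusted p = 0.0134). It lost its call without IRF8KO replicate 3 (adjusted p = 0.103), and the log2 fold change was -0.52 (adjusted p = 0.391) with WT replicate 3 as the only WT library. Calr, whose product calreticulin is the soluble partner of calnexin, had 522, 436 and 469 CPM in WT and 575, 432 and 648 in IRF8KO. The groups overlapped and the log2 fold change was 0.21 (SE 0.29, adjusted p = 0.643). This pair of lectins thus had values on opposite sides of 0. With library size alone as the scaling Calr too was negative, at -0.33, beside a median of -0.613 over all tested genes.

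Hyou1, a nucleotide exchange factor for BiP, had 31.7, 20.0 and 16.1 CPM in WT and 103, 26.025 and 33.1 in IRF8KO. IRF8KO replicate 1 alone was high, and IRF8KO replicate 2 lay below WT replicate 1. The log2 fold change was 1.26 (SE 0.49, adjusted p = 0.0917). Dnajb9, a co-chaperone that restrains IRE1, was low throughout, with 9.53, 12.04 and 3.45 CPM in WT and 1.44, 5.74 and 1.95 in IRF8KO. These ranges overlapped and the log2 fold change was -1.43 (SE 0.67, adjusted p = 0.158). The co-chaperones Dnajb11 and Dnajc3 had log2 fold changes of -0.46 and -0.94, and the secreted stress proteins Manf and Creld2 values of 0.26 and 0.25. None of the 4 passed the test in this fit. Without WT replicate 3 edgeR called Dnajb11 lower (-0.742, adjusted p = 0.0251). With WT replicate 3 as the only WT library, Dnajb11 and Dnajc3 turned to 0.547 and 0.485, and Manf and Creld2 were at 0.629 and 0.31. Sdf2l1, a partner of the Dnajb11 co-chaperone, had 103, 135 and 168 CPM in WT and 302, 158 and 278 in IRF8KO, a log2 fold change of 0.86 (SE 0.33, adjusted p = 0.0843).

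With TMM scaling, 2 of the 8 members with an ERSE in the promoter were called lower, beside 9.46% of all tested genes. The other 6 were not called. Hsp90b1, with both matches, and Canx were the called ones, and the others were Hspa5 and Dnajc3 at -1.36 and -0.94 on the log2 scale, Pdia6 at -0.26, and Syvn1, Calr and Creld2 at 0.02, 0.21 and 0.25. With library size alone, Apoe inside the total, all 8 had a negative log2 fold change, Syvn1, Calr and Creld2 at -0.485, -0.327 and -0.336. The median over all tested genes was -0.613 in that fit, below the values of these 3. With WT replicate 3 as the only WT library, Hspa5, Dnajc3, Calr and Creld2 were positive, at 0.265, 0.485, 0.236 and 0.31. Hsp90b1, Canx, Pdia6 and Syvn1 were negative there, at -0.991, -0.515, -0.00199 and -0.352. The ERSE-II genes Dnajb11 and Herpud1 were at -0.46 and -0.56. Plasma cells are rich in many of these chaperones. B and plasma cell markers summed to between 519 and 859 CPM in WT and between 29.2 and 41.4 CPM in IRF8KO, nearly all of it Ighm and Cd79b. The defining markers Ms4a1 and Jchain were at 0 in every library, and Mzb1 had reads in IRF8KO replicate 1 only. The part of these markers in the chaperone values was not tested.

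Of the 4 disulfide isomerases, edgeR with TMM scaling called 1 lower and none higher. With Apoe left out of the library total and no further scaling, it called P4hb higher (0.656, adjusted p = 0.0161) and did not call Pdia3 (adjusted p = 0.0764). Pdia3 (chr2:121413775-121438687, plus strand) encodes ERp57, which works with calnexin and calreticulin on glycoproteins. Its CPM were 281, 291 and 117 in WT and 69.3, 118 and 85.4 in IRF8KO. WT replicate 3 lay just below IRF8KO replicate 2, so the groups overlapped. The log2 fold change was -1.34 (SE 0.37, adjusted p = 0.0265). The call was lost without WT replicate 1 (adjusted p = 0.0753), WT replicate 2 (0.101), IRF8KO replicate 1 (0.131) or IRF8KO replicate 3 (0.142), and with WT replicate 3 as the only WT library the log2 fold change was -0.35.

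P4hb encodes protein disulfide isomerase itself. Per kilobase of exon it was the most abundant of the 40 genes, with a mean of 292 CPM per kilobase in WT and 456 in IRF8KO. Next in WT came Herpud1 at 247, Xbp1 at 203 and Calr at 165 CPM per kilobase. The CPM of P4hb were 723, 656 and 1123 in WT and 1585, 1037 and 1293 in IRF8KO, a log2 fold change of 0.65 (SE 0.33, adjusted p = 0.197). Pdia4 and Pdia6 had log2 fold changes of -0.21 and -0.26 and were not called.

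None of the 3 sensor genes was called by edgeR with TMM scaling. At an unadjusted p under 0.05 there was 1, Eif2ak3, which was called in 3 of 18 alternative fits. Among these were edgeR with an offset for GC content (-1.42, adjusted p = 0.0371) and without WT replicate 3 (-1.43, adjusted p = 0.0207). All 3 sensor genes were low. Ern1, which encodes IRE1, had 8.37, 6.16 and 3.998 CPM in WT and 11.2, 8.44 and 6.72 in IRF8KO, with overlap (log2 fold change 0.51, SE 0.49, adjusted p = 0.499). Eif2ak3, which encodes PERK, had 14.4, 15.9 and 7.44 CPM in WT and 6.74, 5.38 and 4.45 in IRF8KO. These values did not overlap, and the log2 fold change was -1.19 (SE 0.47, adjusted p = 0.0976). Atf6 had 15.4, 23.4 and 6.75 CPM in WT and 12.04, 27.9 and 10.7 in IRF8KO, with full overlap (log2 fold change 0.15, SE 0.51, adjusted p = 0.866). Each sensor was lowest among the WT libraries in replicate 3.

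The 3 transcription factors downstream of the sensors all had positive log2 fold changes, between 0.51 and 0.68, and none passed the test. Xbp1 and Atf4 were called in none of the 18 alternative fits, and Atf4 went to -0.02 with library size alone as the scaling. The median over all tested genes was -0.613 with that scaling. Xbp1 had 692, 639 and 651 CPM in WT and 1188, 704 and 1150.2 in IRF8KO. On this scale the groups were apart, although IRF8KO replicate 2 lay close to the WT libraries, and the log2 fold change was 0.62 (SE 0.31, adjusted p = 0.187). Atf4 had 74.1, 84.2 and 66.0 CPM in WT and 104, 95.9 and 121 in IRF8KO, also without overlap (log2 fold change 0.51, SE 0.26, adjusted p = 0.192). Per M counts without Apoe the groups of both Xbp1 and Atf4 overlapped. Ddit3, which encodes the pro-apoptotic factor CHOP, had 25.7, 33.5 and 17.0 CPM in WT and 47.0, 30.0 and 45.7 in IRF8KO, with overlap (log2 fold change 0.68, SE 0.34, adjusted p = 0.178). Other gene models, among them a second one of the same name, cover 10.9% of its exonic length.

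The late targets of ATF4 and CHOP had few reads. Trib3, a pseudokinase that restrains the response, had 1, 5 and 10 reads in WT and 13, 21 and 9 in IRF8KO. Its groups overlapped and the log2 fold change of 1.34 had an SE of 0.94 (adjusted p = 0.349). Asns, which encodes asparagine synthetase, had 10, 31 and 6 reads in WT and 19, 21 and 22 in IRF8KO (adjusted p = 0.646). Chac1 was not tested.

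Of the 6 genes of ER-associated degradation, edgeR with TMM scaling called 1 lower and none higher. Edem1 (chr6:108828641-108859356, plus strand) encodes a mannosidase-like factor that sends misfolded glycoproteins to degradation. Its CPM were 223, 188 and 189 in WT and 117, 116 and 102 in IRF8KO. All WT values lay above all IRF8KO values, also per M counts without Apoe, where WT replicate 3 (174) was near IRF8KO replicate 2 (159). The log2 fold change was -0.85 (SE 0.26, adjusted p = 0.0403). The call held without WT replicate 3 (adjusted p = 0.00698) and was lost when any of the 5 other libraries was left out, with adjusted p of 0.135 and 0.109 without WT replicates 1 and 2 and 0.125, 0.0895 and 0.186 without IRF8KO replicates 1, 2 and 3.

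Herpud1, a membrane factor of the same pathway and a strong stress target, had a mean of 576 ± 66.3 CPM (SD, n = 3) in WT. In IRF8KO it had 391 ± 129.6 (SD, n = 3), a log2 fold change of -0.56 that missed the threshold. It was called lower in 4 of the 18 alternative fits. Sel1l, the scaffold of the HRD1 ligase, stood at 109 ± 14.3 CPM in WT and 72.7 ± 10.7 in IRF8KO (log2 fold change -0.59, adjusted p = 0.144), with no overlap on the TMM scale. The ligase gene Syvn1 and the channel genes Derl1 and Derl2 had log2 fold changes of 0.02, 0.00 and 0.36. With library size alone as the scaling all 3 were negative, at -0.485, -0.465 and -0.199, beside a median of -0.613 over all tested genes. In that edgeR fit Herpud1 at -1.11 (adjusted p = 0.00446) and Sel1l at -1.09 (adjusted p = 0.0423) were called lower, as were Edem1 and Syvn1.

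In the SEC61 channel, 2 of the 3 subunits were called higher with TMM scaling and the pore subunit was not. With library size alone neither small subunit passed (Sec61g adjusted p = 0.0743, Sec61b adjusted p = 0.162) and the pore subunit Sec61a1 was called lower (-0.806, adjusted p = 0.0184). Sec61g (chr11:16500530-16508484, minus strand), a single-pass tail-anchored subunit, had 3.89, 7.29 and 9.24 CPM in WT and 19.7, 19.5 and 24.7 in IRF8KO. All IRF8KO values lay above all WT values, and the log2 fold change was 1.63 (SE 0.42, adjusted p = 0.0189). It lost its call without WT replicate 1 (adjusted p = 0.0777), WT replicate 2 (0.0569), IRF8KO replicate 1 (0.0552) or IRF8KO replicate 3 (0.0986). The count rests on 20 reads in WT replicate 1.

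Sec61b (chr4:47474658-47483242, plus strand), the other small subunit, had 15.4, 21.95 and 25.1 CPM in WT and 38.8, 41.1 and 52.3 in IRF8KO. The groups were apart (log2 fold change 1.08, SE 0.31, adjusted p = 0.0297). The call was lost without WT replicate 1 (adjusted p = 0.128), WT replicate 2 (0.091), IRF8KO replicate 1 (0.0692) or IRF8KO replicate 3 (0.145). Sec61a1, the pore itself, had 350.2, 300.1 and 499 CPM in WT and 372, 297 and 245 in IRF8KO, a log2 fold change of -0.33 (SE 0.31, adjusted p = 0.491). Part of the 3 genes is uncertain, since 20.5% of the stretches of 50 bases in the longest Sec61g transcript, 15.3% in Sec61b and 14.6% in Sec61a1 also occur in other gene models.

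The TRAP complex sits beside SEC61 and helps weak signal peptides to open it. None of its 4 genes was called by edgeR with TMM scaling. Ssr2 and Ssr4 had IRF8KO values above all WT values and Ssr1 and Ssr3 did not. Ssr4 had 146, 188 and 295 CPM in WT and 429, 356 and 452 in IRF8KO, a log2 fold change of 0.98 (SE 0.32, adjusted p = 0.0522). It was called higher in 9 of the 18 alternative fits, among them DESeq2 (0.995, adjusted p = 0.0189) and limma-voom (1.03, adjusted p = 0.0301). Ssr2 had 144, 154 and 252 CPM in WT and 339, 259.5 and 329 in IRF8KO, a log2 fold change of 0.75 (SE 0.31, adjusted p = 0.106). WT replicate 3 was the highest WT library for both. The log2 fold changes of Ssr1 and Ssr3 were -0.27 and -0.84, and there WT replicate 3 was the lowest WT library. With WT replicate 3 as the only WT library they turned to 0.455 and 0.659. With an offset per gene for GC content Ssr1 was at 0.119 and Ssr3 at -0.217. With offsets for both GC content and length Ssr1 was at 0.155 and Ssr3 at -0.0191.

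Of the 3 signal peptidase subunits, Spcs1 was called higher and Spcs3 lower with TMM scaling, and Spcs2 was not called; with library size alone Spcs1 did not pass (adjusted p = 0.149). Spcs1 (chr14:30999826-31001672, minus strand), a small accessory subunit, had 102, 79.2 and 111 CPM in WT and 225, 139.9 and 191 in IRF8KO (log2 fold change 0.93, SE 0.29, adjusted p = 0.0428). All IRF8KO values lay above all WT values. The call was lost without WT replicate 1 (adjusted p = 0.106), WT replicate 2 (0.194), IRF8KO replicate 1 (0.17) or IRF8KO replicate 3 (0.149). The neighbouring gene Glt8d1 overlaps 16.3% of its exonic length.

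Spcs3 (chr8:54520433-54529998, minus strand), a subunit needed for cleavage, had 47.3, 59.7 and 20.95 CPM in WT and 10.9, 15.9 and 3.90 in IRF8KO. On the TMM scale all WT values lay above all IRF8KO values, and IRF8KO replicate 3 was the lowest; per M counts without Apoe, IRF8KO replicate 2 (21.8) lay above WT replicate 3 (19.3). Spcs3 had a log2 fold change of -2.06 (SE 0.52, adjusted p = 0.0163). The call was lost without WT replicate 2 (adjusted p = 0.0639), IRF8KO replicate 1 (0.0675) or IRF8KO replicate 3 (0.0767), and the log2 fold change was -1.0 (adjusted p = 0.381) with WT replicate 3 as the only WT library. Spcs2, the third accessory gene, had a log2 fold change of 0.35 and was not called.

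Ratios of counts between subunits of 1 complex do not depend on how a library is scaled, nor on Apoe. Differences between libraries by transcript length or GC content stay in the ratios, to which no offset was applied. Exonic lengths were 6732 bases for Sec61a1, 2464 for Sec61g and 1271 for Sec61b, and 1546 for Spcs1 and 3466 for Spcs3. The lowest counts behind the ratios were 20 reads for Sec61g in WT replicate 1 and 36 for Spcs3 in IRF8KO replicate 3. The ratio of Sec61a1 to Sec61g was 90, 41.2 and 54.0 in WT and 18.9, 15.3 and 9.92 in IRF8KO, and the ratio of Sec61a1 to Sec61b was 22.8, 13.7 and 19.9 in WT and 9.58, 7.23 and 4.69 in IRF8KO. Both were lower in every IRF8KO library than in every WT library. The ratio of Spcs1 to Spcs3 was 2.15, 1.33 and 5.28 in WT and 20.6, 8.81 and 48.8 in IRF8KO, a difference of 3.07 in mean log2 ratio, or 8.38-fold. The groups did not overlap in 6 of the 12 subunit pairs, the others being Sec61b to Sec61g, Ssr2 to Ssr4 and Spcs2 to Spcs3. The two-sided exact permutation p was 0.1 for each of the 6, the smallest that 3 against 3 samples can give, and 0.2 after adjustment over the 12 pairs. The ratios were computed with the values of the single genes known. No share over all gene pairs was computed; single genes did not overlap between the groups in 37.9% of all tested genes and the pairs hold called members, so nothing is read from the count.

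**Figure D2:**
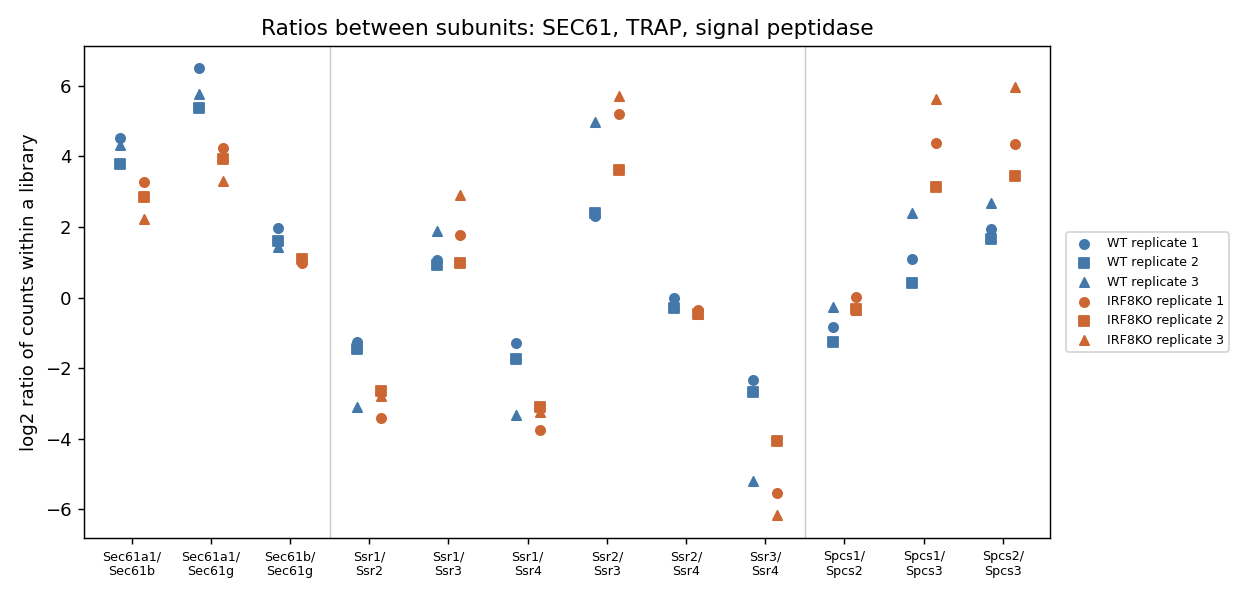
Ratio of counts of 2 subunit genes within each library (vertical axis, log2) for the 12 pairs of the SEC61, TRAP and signal peptidase complexes, with vertical lines between complexes. Blue is WT and orange IRF8KO; in the pairs Sec61a1/Sec61g and Spcs1/Spcs3 the groups are apart, at 41.2 or more against 18.9 or less and at 5.28 or less against 8.81 or more.

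Because Apoe took up to 33.7% of an IRF8KO library, all values were also computed with Apoe left out of the library total and no further scaling. Then 7 members were called higher and 3 lower by edgeR, against 11.4% and 7.69% of the 10948 genes tested. Sec61g, Sec61b and Spcs1 stayed among the higher and Hsp90b1, Canx and Edem1 among the lower members, at adjusted p between 0.0128 and 0.0377. Added to the higher genes were Ssr4, Ssr2, P4hb and Sdf2l1, while Pdia3 (adjusted p = 0.0764) and Spcs3 (adjusted p = 0.0576) no longer passed. The groups did not overlap in 9 members, 7 higher and 2 lower, against 37.6% of all genes in either direction. Hsp90b1, Canx, Spcs3, Eif2ak3, Sel1l, Xbp1 and Atf4 were apart with TMM scaling and overlapped here, and Sdf2l1, P4hb and Herpud1 were apart only here.

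Per M counts without Apoe, Ssr4 stood at 205, 245 and 271 in WT and at 448, 489 and 522 in IRF8KO, and Ssr2 at 202, 201 and 231 in WT and at 354, 357 and 379.8 in IRF8KO. Their log2 fold changes were 1.02 (SE 0.16, adjusted p = 0.00331) and 0.78 (SE 0.14, adjusted p = 0.00648). P4hb stood at 1017, 855 and 1032 in WT and at 1657, 1424 and 1492 in IRF8KO, with a log2 fold change of 0.66 (SE 0.15, adjusted p = 0.0161). Sdf2l1 stood at 145, 176 and 154 in WT and at 316, 217 and 320.5 in IRF8KO, with a log2 fold change of 0.84 (SE 0.19, adjusted p = 0.0176). IRF8KO replicate 2 was the lowest of its group for Sdf2l1 but above all WT libraries. WT replicate 3 was no longer the highest WT library for Sdf2l1 and lay close to replicate 1 for P4hb. When TMM was applied after Apoe was left out, 4 members were called higher and 4 lower, against 10.7% and 7.96% of all genes, with P4hb, Ssr2 and Sdf2l1 again short of the threshold at adjusted p of 0.165, 0.0884 and 0.0675, Ssr4 called at 0.0457 and Edem1 no longer called at 0.0574.

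**Figure D3:**
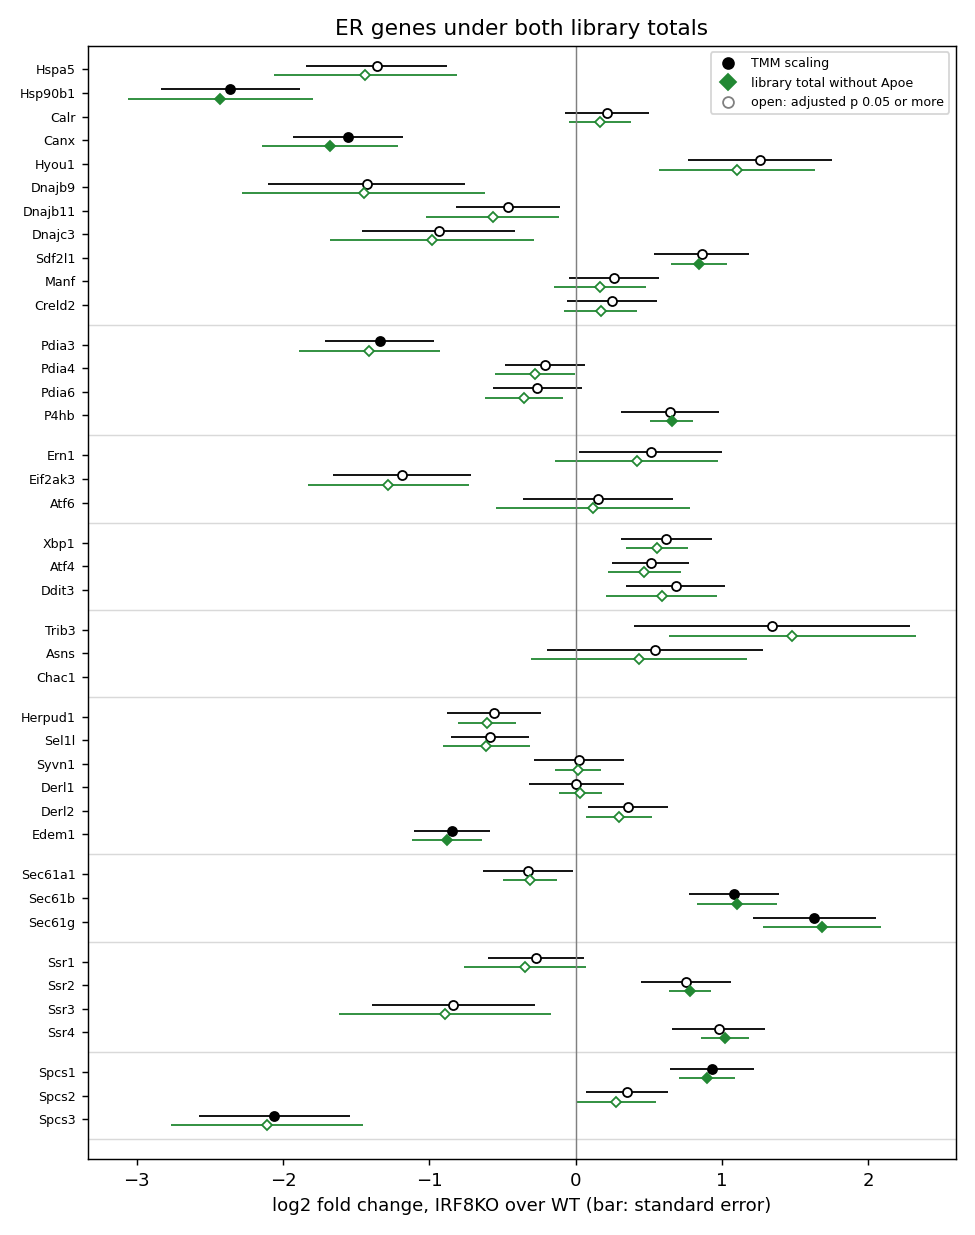
Log2 fold change of each tested ER gene, IRF8KO over WT, with its standard error as a bar. Black circles are the TMM-scaled fit and green diamonds the fit with Apoe left out of the library total; filled marks have an adjusted p under 0.05, 8 and 10 members, and every tested member has the same sign in both.

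Whether the ER genes follow the Apoe load can be described only within the 3 IRF8KO libraries, since between the genotypes Apoe and Irf8 status cannot be told apart. The Apoe share fell from IRF8KO replicate 1 (33.7%) to replicate 3 (28.02%) to replicate 2 (25.5%). With TMM scaling, 14 of 39 members, 35.9%, had the same order, against 22.9% of all tested genes, and 5 had the reverse order, against 18.8% of all. With Apoe left out of the library total and no further scaling, 8 members, 20.5%, kept the Apoe order, against 9.24% of all: Hyou1, Creld2, Pdia6, P4hb, Asns, Herpud1, Syvn1 and Spcs1. The reverse order was found in 7: Hspa5, Dnajb9, Dnajb11, Dnajc3, Pdia3, Sel1l and Ssr1, against 29.8% of all genes. With 3 libraries there is no test, and genes divided by the same 3 totals are not independent.

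BiP ran against the Apoe order while its exchange factor ran with it. Per M counts without Apoe, Hspa5 was at 100.3, 144 and 280.2 in the order of falling Apoe share, and Hyou1 at 108, 38.2 and 35.8. P4hb fell from 1657 to 1492 to 1424 in the same order, a small change. The 40 genes summed to 8841, 8774 and 8233 per M counts without Apoe in that order, and to 9646, 8693 and 6274 in WT replicates 1, 2 and 3, so the IRF8KO sums lay inside the WT range. On the TMM scale the sums were 6851, 6674 and 6828 CPM in WT and 8459, 5993 and 7601 CPM in IRF8KO replicates 1, 2 and 3. IRF8KO replicate 2 also differed from the other 2 IRF8KO libraries by GC content: across members its log2 difference from them had a Spearman correlation of -0.518 with gene GC content, and -0.435 across all genes. Monocyte markers, too few in reads to be tested, summed to 0.321, 42.1 and 0.325 CPM in IRF8KO replicates 1, 2 and 3 and to at most 1.42 CPM in WT, and 386 reads of Chil3 in IRF8KO replicate 2 made up most of them; their part in the Apoe order was not tested. The part of GC content was not tested beyond an offset for it, under which 12 members had the order against 16.1% of all genes.

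**Figure D4:**
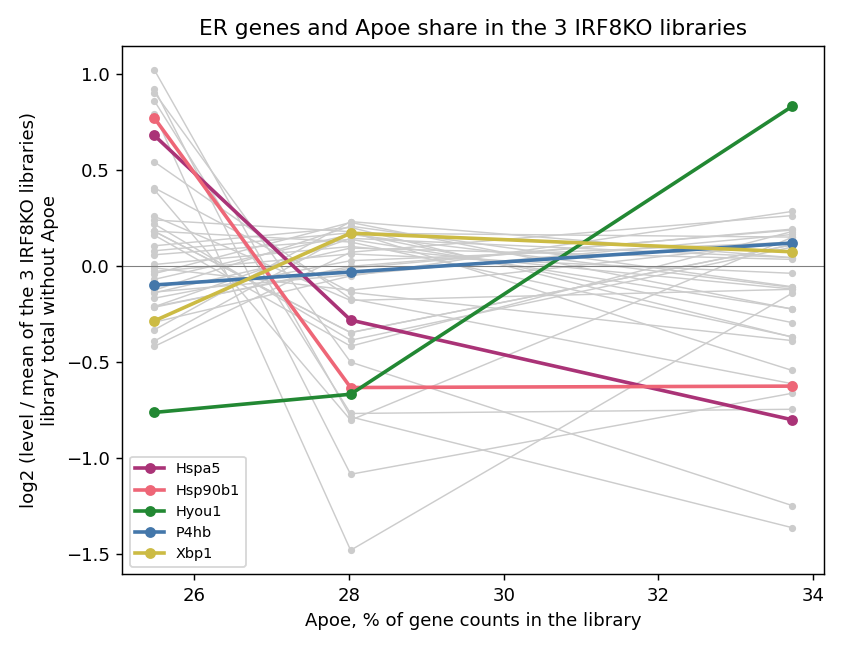
Level of the 39 tested ER genes in the 3 IRF8KO libraries, per library total without Apoe and relative to their own mean (vertical axis, log2), against the share of gene counts taken by Apoe (horizontal axis, %). Each line is 1 gene; Hyou1 and P4hb rise toward the library with the highest Apoe share of 33.7%, while Hspa5 falls.

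The log2 fold changes of the members were also set beside the length and base composition of their transcripts. Split by exonic length into 3 classes of 13, the shortest (1108 to 2735 bases) had a median log2 fold change of 0.68, the middle class (2861 to 4221 bases) 0.00 and the longest (4229 to 10431 bases) -0.33. All 3 genes called higher were in the shortest class, and of the 5 called lower 3 were in the middle and 2 in the longest class. All tested genes in the same length ranges had medians of 0.34, -0.145 and -0.36. The Spearman correlation of the log2 fold change with length was -0.44 over the 39 members and -0.247 over 11034 genes, and with GC content 0.523 and 0.285; these describe genes that share 6 libraries. Against WT replicate 3 alone, the correlation with length was -0.186 over members and -0.0507 over all genes, and with GC content 0.133 and -0.115. The genes called lower had GC contents from 40.2% (Spcs3) to 46.9% (Pdia3), and those called higher 41.4% (Spcs1), 44.6% (Sec61g) and 56.3% (Sec61b). The log2 difference of WT replicate 3 from the other WT libraries had a correlation of 0.648 with GC content over members and 0.615 over all genes.

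With an offset per gene for GC content, 5 members were called higher and 8 lower, against 11.7% and 14.9% of all genes. Hsp90b1, Canx, Pdia3, Edem1 and Spcs3 kept their calls, at adjusted p between 0.0019 and 0.0312, as did Sec61g and Spcs1, and Sec61b missed the threshold at 0.0555. Ssr2, Ssr4 and Ddit3 joined the higher genes, and Eif2ak3, Herpud1 and Sec61a1 the lower ones. With an offset for both GC content and length, which was added after the data were seen, 3 members were called higher and 4 lower, against 10.8% and 13.4% of all genes. Hsp90b1 at -1.58, Pdia3 at -1.12 and Spcs3 at -1.29 stayed lower and Sec61g at 1.81 stayed higher, and Herpud1 at -0.99 was called lower and Ssr4 at 0.85 and Spcs2 at 0.67 higher. The log2 fold change of Sec61b went to 0.19 (adjusted p = 0.66), and that of Sdf2l1 turned to -0.18 (adjusted p = 0.521). Canx at -0.69 (adjusted p = 0.086), Edem1 at -0.45 (adjusted p = 0.126) and Spcs1 at 0.99 (adjusted p = 0.0825) no longer passed.

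**Figure D5:**
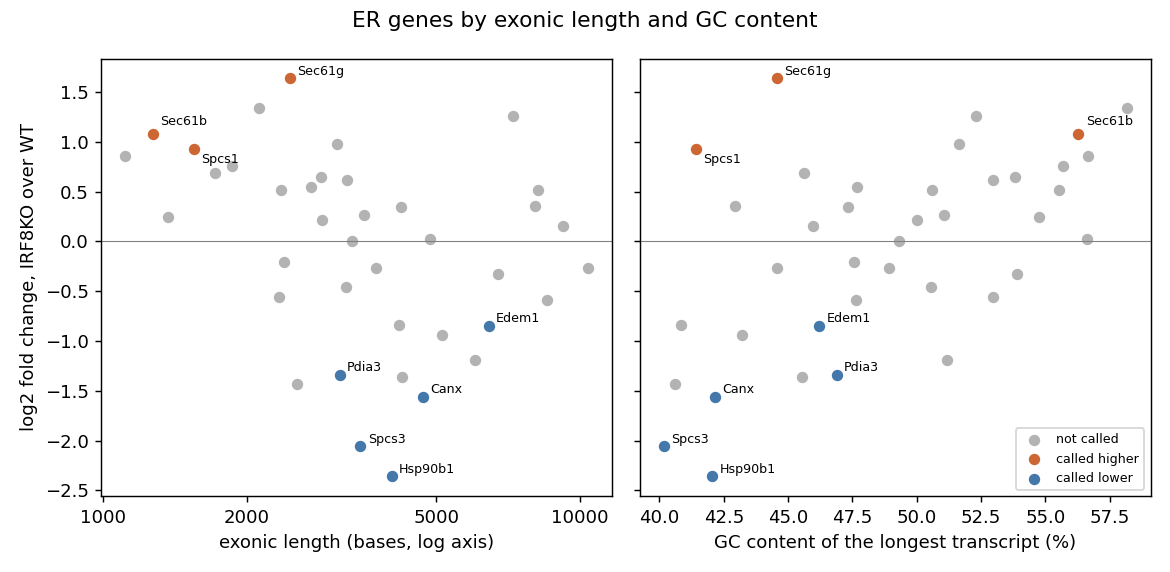
Log2 fold change of the 39 tested ER genes, IRF8KO over WT, against exonic length (left, bases on a log axis) and GC content of the longest transcript (right, %). Orange genes were called higher and blue genes lower; the lower genes sit between 40.2% and 46.9% GC, and Sec61b and Spcs1 are among the shortest genes.

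A further 106 genes of the same pathways, in 5 lists, served as context; the lists are by function, not by how the genes moved. Of the 104 tested, 10 were called higher and 15 lower, beside 9.64% higher and 9.46% lower over all genes, with a median log2 fold change of -0.25. Among 24 other folding and glycan quality control genes, 2 rose and 2 fell. Prdx4, an ER peroxidase that feeds oxidation of disulfides, had 56.6 ± 18.003 CPM (SD, n = 3) in WT and 183 ± 41.5 in IRF8KO, and Sdf2, the paralog of the member Sdf2l1, had a log2 fold change of 1.31. Pdia5, another isomerase and the most changed of these genes by p, went from 37.4 ± 0.957 to 3.60 ± 0.879 CPM (log2 fold change -3.36, SE 0.37, adjusted p = 9.76e-05). Erp44, which retains oxidases in the ER, was lower with a log2 fold change of -1.71 (adjusted p = 0.0403).

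Among 24 tested genes of the integrated stress response, through which PERK favours ATF4, 3 rose and 6 fell. Psat1, a serine synthesis enzyme under ATF4, rose by 2.05 on the log2 scale (adjusted p = 0.00136), and Eif4ebp1, a brake on translation, by 1.64 (adjusted p = 0.00491). The phosphatase subunits that end the response fell: Ppp1r15a had 136, 299 and 40.3 CPM in WT and 27.3, 8.615 and 13.9 in IRF8KO (adjusted p = 0.00443), and Ppp1r15b had a log2 fold change of -1.59 (adjusted p = 0.00691). Ppp1r15a was high in the WT libraries with high immediate early genes; their part in the result was not tested.

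Of 17 other degradation genes, 3 fell and none rose, among them the ubiquitin-conjugating enzyme Ube2j1 (log2 fold change -1.54, adjusted p = 0.0079). Of 21 targeting and glycosylation genes, 3 rose and 2 fell: Srp14 of the signal recognition particle had 1.28 (adjusted p = 0.0119), Sec11a, a catalytic subunit of signal peptidase, 0.99 (adjusted p = 0.0337) and Stt3b, a catalytic subunit of the oligosaccharyltransferase, -1.06 (adjusted p = 0.0322). Sec11c, the alternative catalytic subunit of signal peptidase, had a log2 fold change of -0.18 (adjusted p = 0.694). Of 18 tested genes of transport to the Golgi, 2 rose and 2 fell. Kdelr2 and Kdelr1, receptors that return escaped chaperones to the ER, rose by 1.38 (adjusted p = 0.00496) and 1.14 (adjusted p = 0.0203) on the log2 scale, and the cargo receptor Lman1 had a log2 fold change of -1.75 (adjusted p = 0.00893). Prdx4, Pdia5, Psat1, Eif4ebp1 and Kdelr2 were called whichever single library was left out, and the other named genes of these lists lost their call in at least 1 such fit, Ppp1r15a with an adjusted p of 0.0505.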

How the data were processed

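Raw gene counts of the 6 libraries were deposited by the authors in the layout written by the aligner STAR; the counts that ignore strand were used, after 4 summary lines. Per the submitters' processing notes, bcl2fastq, STAR 2.5.2b, Picard 2.17.11, Subread, featureCounts and build mm10 were used; their roles are not stated, and the annotation release is not given in the sources used here. Reads carry no molecular identifiers. Symbols came from GENCODE M21 for 49326 of 49585 identifiers (5577 without version).

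Counts were filtered with filterByExpr (minimum count 10, 11041 genes left), scaled by TMM and tested with edgeR 4.0.16 in R 4.3.3 (quasi-likelihood F test, genotype as the only term, Benjamini-Hochberg adjustment, threshold 0.05). CPM are counts per M of TMM-scaled library size, with 1 M being 1e+06 counts. The steps were tested on simulated data. There the edgeR test called 10 of 100 simulated 2-fold changes, 69 of 100 simulated 4-fold changes and 7 of 10164 unchanged genes. A member that was not called is therefore not shown to be unchanged. Alternatives were other scalings, Apoe left out, DESeq2 1.42.0, limma 3.58.1, no filter, GC offsets, replicate blocks and single libraries left out. Members, lists and alternatives were chosen with earlier results of these data known. Named context genes are, per list, the called genes with at least 10 CPM on average, the 2 with the smallest p in each direction. Sec11c, which was not called, was named beside Sec11a after its values were seen. Some genes that this rule or the marker lists would name are not reported here.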

Additional observations from a re-analysis of the deposited data

How the results depend on the processing

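None of the 18 alternatives turned the sign of a called member. Dividing by library size alone, with Apoe inside the total, shifted the median of all genes by -0.504 on the log2 scale, the members' median to -0.346 and the edgeR calls to 0 higher (2 at an unadjusted p under 0.05) and 10 lower members and 28 lower context genes, beside 5.9% higher and 17.3% lower of all genes, and turned Syvn1 from 0.02 to -0.485 (adjusted p = 0.0472) and, without a call, Calr, Manf, Creld2, Ern1, Atf6, Atf4, Asns, Derl1, Derl2 and Spcs2 from above to below 0; the Apoe order then held for 7 members and 5.2% of all genes. With Apoe left out, 7 members were higher and 3 lower and 8 had the Apoe order, and with TMM after that the median was 0.262. DESeq2 called 6 higher and 6 lower members, beside 12.1% and 12.3% of all genes. With the GC offset, 5 were higher and 8 lower and the median was 0.038; with GC and length offsets it was 0.016. The cause of these moves was not tested beyond the scaling itself.

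Left-out single libraries gave between 0 and 7 higher and 0 and 8 lower members, a median of 0.00531 to 0.233, 5 to 18 higher and 2 to 28 lower context genes and 910 to 4003 calls over all genes, 0 members without IRF8KO replicate 3 (5 higher and 5 lower at an unadjusted p under 0.05) and most without WT replicate 3. With WT replicate 3 as the only WT library, edgeR, which then takes its spread from IRF8KO, called 0 members in either direction (5 higher and 2 lower at an unadjusted p under 0.05), 5 higher and 5 lower context genes and 1245 genes in all, at a members' median of 0.305.

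The labels state no pairing by replicate number. Correlations of same-numbered deviations from the group mean were -0.26, 0.328 and 0.114, and those of differently numbered ones lay between -0.422 and 0.349. Deviations within a group are not independent, so these values cannot show whether same-numbered samples shared a litter or day. With the replicate block 2353 genes, 4 higher and 5 lower members were called, beside 10.3% and 11% of all genes; Edem1 (adjusted p = 0.0732) and Spcs1 (0.0512) lost their calls and Hspa5 (0.0444), Hyou1 and Ssr4 gained one. The replicate block with the GC offset gave a median of 0.0412. Trib3, Asns and Chac1 had at most 31 reads a library.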
